A study of Homo sapiens with 2 samples.

Results

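The genes described here are the translation initiation factors eIF1 to eIF6 and the elongation factors eEF1 and eEF2 of SH-SY5Y (SY5Y), a human neuroblastoma cell line that grows as neuroblast-like cells. They were chosen by name: a protein-coding Ensembl gene whose symbol starts with EIF1 to EIF6, EEF1 or EEF2, with the kinases of eIF2 (EIF2AK) left out. The rule found 67 of the 33538 genes in the files, and it used no measured value. It also takes in genes that act on these factors, such as the eIF4E binding inhibitors and the enzymes that modify eEF1A and eEF2, and 2 readthrough loci. One of the 67 genes lies on the Y chromosome and is counted without a level, which leaves 66.

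The cells were untreated and came from 2 flasks, SplitA and SplitB, which were grown from the same split of the line. The flasks were tagged with hashtag antibodies, pooled and sequenced as 1 CITE-seq library. A cell was assigned to a flask when its hashtag counts were at least 3 times those of the other hashtag and the other stayed at or below a fixed limit, which gave 1179 cells of SplitA and 1605 of SplitB, together 2784 singlets, and left 95 cells in neither flask. A singlet held 505 to 27205 UMIs, with a median of 5291 in SplitA and 5410.0 in SplitB. Doublets of cells of the same flask cannot be seen from hashtags and were not removed. The neuroblast label was checked on 10 adrenergic markers. Each had UMIs in both flasks, but TH, the enzyme that starts catecholamine synthesis, had only 9 UMIs in the cells of low mitochondrial share in each flask. The 10 markers held 0.382% of nuclear UMIs in SplitA and 0.368% in SplitB. A list of 10 mesenchymal markers held 0.0325% and 0.0357%, with PRRX1 at 0 in every class of cells and TWIST1 and VIM as the main sources.

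Translation starts when eIF2 brings the initiator tRNA to the small ribosomal subunit, the eIF4F complex (the cap-binding protein eIF4E, the helicase eIF4A and the scaffold eIF4G) binds the capped mRNA, and the large eIF3 complex joins both. The eEF1A protein then delivers each aminoacyl-tRNA to the ribosome, the eEF1B subunits reload it with GTP, and eEF2 moves the ribosome along by 1 codon. Many of these mRNAs, like those of the ribosomal proteins, begin with a pyrimidine tract (the 5′ TOP motif) through which mTOR signalling controls their translation.

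To show which of the factors carry such a start, 30 bases around the annotated transcript start were read from the RefSeq promoter table (GRCh38.p14). Each window holds 10 bases before the start and 20 from the start onwards. A tract was called when the first transcribed base was C and was followed by at least 4 bases that were each C or T. The capitals mark the tract, and the first capital is the first transcribed base. The windows of 5 genes with a tract are shown first, since these genes recur in the results. They lie at chr6:73521013-73521042 (EEF1A1, minus strand), chr2:206159885-206159914 (EEF1B2, plus strand), chr19:3985444-3985473 (EEF2, minus strand), chr11:7987327-7987356 (EIF3F, plus strand) and chr3:186783567-186783596 (EIF4A2, plus strand).
EEF1A1: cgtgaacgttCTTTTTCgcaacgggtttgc
EEF1B2: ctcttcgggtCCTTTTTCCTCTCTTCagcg
EEF2: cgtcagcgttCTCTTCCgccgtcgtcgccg
EIF3F: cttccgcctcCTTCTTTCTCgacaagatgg
EIF4A2: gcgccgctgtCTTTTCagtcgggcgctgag

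The helicase paralogs EIF4A1 (chr17:7572815-7572844, plus strand) and EIF4A3 (chr17:80147109-80147138, minus strand) and the start codon factor EIF1 (chr17:41688875-41688904, plus strand) had no tract in this window. They are shown as the paralogs of EIF4A2 and as a highly expressed factor without a tract.
EIF4A1: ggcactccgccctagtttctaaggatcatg
EIF4A3: cggcagcggcacagcgaggtcggcagcggc
EIF1: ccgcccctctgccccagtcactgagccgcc

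Of the 66 factors, 53 had a start in the table and 13 of them (24.5%) a tract at 1 or more starts, against 47 of 69 ribosomal protein genes (68.1%) and 968 of 15265 protein-coding genes (6.34%). The factors with a tract were EEF1A1, EEF1B2, EEF2, EIF2A, EIF2D, EIF2S3, EIF2S3B, EIF3D, EIF3F, EIF3K, EIF3M, EIF4A2 and EIF4B. EEF1A2, EEF1AKMT1, EEF1AKMT3, EEF1D, EEF2KMT, EIF2S2, EIF3A, EIF3CL, EIF3E, EIF3G, EIF3H, EIF3L and EIF4EBP1 have no entry. A match of letters is a description, since the starts used in these cells were not measured.

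Levels are given as nuclear CPM, the UMIs of a gene per 1000000 UMIs of all genes outside the mitochondrial genome. In 3′ libraries each captured molecule gives 1 UMI whatever its length, so CPM was not divided by length. Levels and their sums remain uncertain where copies or overlapping genes share sequence, as listed below. Intervals are 95% intervals and cover counting error only. Together the 66 factors held 1.68% of the nuclear UMIs in SplitA (exact binomial interval 1.67 to 1.69%) and 1.67% in SplitB (1.67 to 1.68%), or 1.68% ± 0.00528 (SD, n = 2 flasks). The 86 cytosolic ribosomal protein genes held 39.1% in each flask.

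EEF1A1, the main carrier of aminoacyl-tRNA, stood far above the others at 6627 CPM in SplitA and 6513 CPM in SplitB. It alone gave 39.1% of the UMIs of the factors and ranked 16 among all nuclear genes. EEF1B2, an exchange subunit of eEF1B, followed at 1240.2 and 1255 CPM, EEF2 at 981 and 1000.4 CPM, and EIF1 at 908 and 893 CPM. The next were the eIF3 subunits EIF3L (539 and 526 CPM) and EIF3F (455 and 439.9 CPM), the eIF4E inhibitor EIF4EBP1 (428 and 443 CPM), EIF5A (407 and 411 CPM), the eEF1B subunit EEF1D (352 and 363 CPM) and EIF3K (332 and 356 CPM). EEF2 and EIF1 stood next to each other with intervals that did not overlap in either flask, while those of EIF3F and EIF4EBP1 did in both.

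Summed by role, the 6 eEF1 genes gave 49.3% of the UMIs of the factors, the 14 eIF3 genes 17.8%, the 10 genes for the ternary complex and the start codon 10.99%, the 12 cap-binding and helicase genes 7.78%, and EEF2 5.91%. The 4 eIF4E binding inhibitors gave 3.13%, the 3 eIF5A genes 2.64%, the 5 eIF2B subunits 0.801%, EIF6 0.679%, EIF2A with EIF2D 0.593%, and the 6 modifying enzymes 0.311%. Levels were uneven, with 2 factors over 1000 CPM, 27 from 100 to 1000 CPM and 37 below. No UMI was found in the singlets for EIF2S3B, EIF4E1B and the 2 readthrough loci. This allows a level of up to 0.226 CPM each, provided that their reads can be told apart from those of other genes. The readthrough loci overlap EEF1AKMT4 and EEF1E1.

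Some levels are uncertain because copies or overlapping genes share sequence. EIF3C had 3.54 CPM over both flasks and its near-identical copy EIF3CL 0.0754 CPM, although EIF3C is a core subunit of the same complex as EIF3L. EEF1G, a structural subunit of eEF1B, had 24.4 CPM, far below its partners EEF1B2 and EEF1D, and a readthrough gene on the same strand overlaps it. EIF5AL1, an intronless copy of EIF5A, had 24.2 CPM, and EIF4EBP3, which overlaps a readthrough gene with ANKHD1, had 0.301 CPM. EIF4A1 also overlaps a readthrough gene, with SENP3, which had 0 UMIs over all cells. The shares within the EIF4A group given below rest on the count of EIF4A1. Whether reads that match more than 1 gene were lost in counting was not tested.

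**Figure D1:**
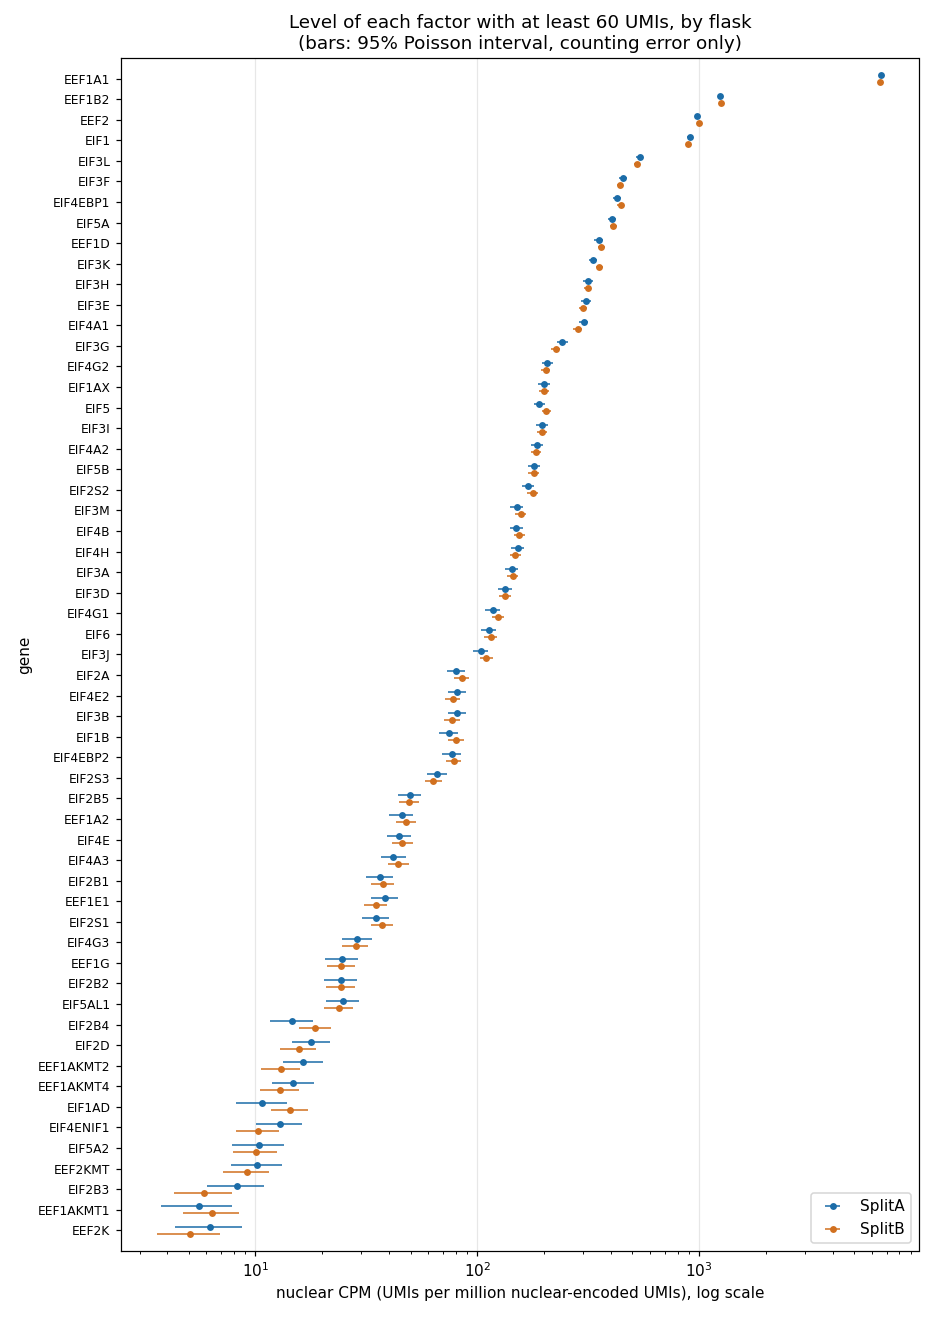
Nuclear CPM (log axis) of the 57 factors with at least 60 UMIs, ordered by level. Points show SplitA and SplitB and bars the 95% Poisson interval. The 6 factors whose flasks differ by 0.25 or more on the log2 scale all lie below 20 CPM, and EEF1A1 at 6627 and 6513 CPM is the highest.

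Levels differed little between flasks. For the 57 factors with at least 60 UMIs the median absolute log2 difference was 0.05, and 6 of the 57 differed by 0.25 or more. So did 21.0% of the 10228 nuclear genes with at least 60 UMIs, which were not matched to the factors for level. The 6 factors were EIF2B4, EEF1AKMT2, EIF1AD, EIF4ENIF1, EIF2B3 and EEF2K, all below 20 CPM, and were named after their values were seen. With 1 flask against 1 flask these differences have no test.

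Isoform use was alike in both flasks. EEF1A2, the eEF1A paralog that mature neurons and muscle use, had 45.6 CPM in SplitA and 47.6 CPM in SplitB, which was 0.683% of the EEF1A UMIs in SplitA (exact binomial interval 0.602 to 0.772%) and 0.725% in SplitB (0.653 to 0.803%). EIF4A2 gave 38.2% of the UMIs of EIF4A1 and EIF4A2 in SplitA and 39.5% in SplitB. EIF4A3, the paralog of the exon junction complex, gave 7.89% and 8.60% of those of the 3 EIF4A genes. Among the EIF4G genes, EIF4G2, which lacks the eIF4E binding site, gave 58.6% and 57.2%, and EIF4G3 8.15% and 7.95%. EIF4E2, which binds caps but is known as a repressor, gave 62.2% and 60.7% of the EIF4E UMIs, EIF4E3 3.84% and 3.17%. EIF1B gave 7.55% and 8.26% of the EIF1 pair, EIF5A2 2.49% and 2.38% of EIF5A and EIF5A2, and EIF4EBP2 15.2% and 15% of the EIF4EBP genes. The flasks' intervals overlapped for each of these shares.

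The second question was how the factors changed with the mitochondrial share, the percentage of a cell's UMIs on the 13 mitochondrial genes. It was under 15% in 847 cells of SplitA and 1130 cells of SplitB, from 15 to 30% in 139 and 128 cells, and 30% or more in 193 and 347 cells. The cells of high share held few UMIs, with a median of 946 nuclear UMIs against 5716 in SplitA and 894 against 5951 in SplitB. Ribosomal protein genes held 40.9% of nuclear UMIs in the low and 14.0% in the high class of SplitA, and 40.9% and 13.9% in SplitB. The nuclear RNAs MALAT1 and NEAT1 held 1.53% and 4.67% in SplitA and 1.49% and 4.79% in SplitB, and the adrenergic markers 0.349% and 0.977%, and 0.335% and 0.861%. The S and G2M genes used for the cell cycle below held 0.628% and 1.31% in SplitA and 0.609% and 1.41% in SplitB. The part of these shifts in what follows was not tested. Depth was looked at below only in cells of at most 2000 nuclear UMIs and within the cells under 15%.

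The summed share of the factors was slightly higher in the high class, at 1.67% in the cells of low (exact binomial interval 1.66 to 1.68%) and 1.82% in the cells of high share (1.76 to 1.88%) in SplitA, and 1.67% (1.66 to 1.68%) and 1.78% (1.73 to 1.82%) in SplitB. Without EEF1A1 it was 0.999% and 1.27% in SplitA and 1.01% and 1.24% in SplitB. Single factors went in both directions.

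UMIs were summed for each flask and class, and cells of at least 30% were compared with cells under 15% by edgeR's quasi-likelihood test with the flask as a block, two-sided, and Benjamini-Hochberg adjustment over all nuclear genes. Fold changes are on TMM-scaled counts. The p-values measure how far the differences between classes varied between these 2 flasks, with estimates of spread shared across genes. Of the 57 factors tested, 17 were higher and 19 lower at an adjusted p below 0.05, 63.2% in all. Beside them, 21.2% of the 10228 genes were higher, 20.2% lower and 41.5% called either way. These genes were not matched to the factors for level. The part of level in the shares called was not tested, here or in the contrasts below. The median log2 fold change was -0.27 for the factors, 0.04 for all genes and -2.30 for the 84 ribosomal protein genes tested, of which 82 were lower.

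These directions depended on the scaling. TMM and plain library size differed by 0.68 on the log2 scale for the median gene. By library size 24 factors were higher and 10 lower, beside 40.6% of genes higher, 9.81% lower and 50.4% either way. The 17 factors called higher were so under both, and 10 of the 19 called lower were also lower by library size, namely EEF1A1, EEF1B2, EIF1, EIF1AX, EIF3F, EIF3H, EIF3L, EIF4EBP1, EIF4EBP2 and EIF5. EEF2 was lower by TMM and higher by library size, and EEF1D, EIF4G2 and EIF2S2 changed sign without passing the test by library size.

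Among the elongation factors, EEF1A1 fell from 6704 to 5509 CPM in SplitA and from 6596 to 5339 CPM in SplitB (log2 fold change -0.98, edgeR adjusted p = 4.55e-10, and -0.29 by library size). EEF1B2 fell more, from 1286 to 617 CPM and from 1301 to 619.5 CPM (-1.75, edgeR adjusted p = 6.2e-26, and -1.07 by library size). Both flasks moved alike, by -0.96 and -0.99 for EEF1A1 and by -1.73 and -1.75 for EEF1B2. EEF2 had 967 and 1239.8 CPM in SplitA and 986 and 1272 CPM in SplitB, a log2 fold change of -0.32 by TMM (edgeR adjusted p = 0.0383) and 0.36 by library size. EEF1A2 did not pass by TMM (log2 fold change 0.45, edgeR adjusted p = 0.117) and was higher by library size (1.13). Its share of the EEF1A UMIs, which no scaling touches, was 0.640% (exact binomial interval 0.559 to 0.730%) in the cells of low and 1.40% (0.788 to 2.31%) in the cells of high share in SplitA, and 0.672% (0.601 to 0.7505%) and 1.98% (1.39 to 2.73%) in SplitB. The high classes rest on 15 and 36 UMIs of EEF1A2. EEF1D was lower by TMM (-0.46, edgeR adjusted p = 0.00341) and at 0.22 by library size, and EEF1G (-0.93, edgeR adjusted p = 0.0653) and EEF1E1 (-0.48, edgeR adjusted p = 0.232) did not pass.

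The cap-binding and helicase genes held 3 of the 5 factors called with a log2 fold change above 1, beside EIF2B4 and EIF2S1. All genes were not counted at this size, so this count has no background beside it. EIF4A1, the main eIF4A helicase, rose from 216 to 1386 CPM in SplitA and from 215 to 1275 CPM in SplitB (log2 fold change 1.94, edgeR adjusted p = 2.08e-35). EIF4A3 rose from 27.2 to 251 CPM and from 30.0 to 236 CPM (2.39, edgeR adjusted p = 1.57e-27), and the scaffold EIF4G1 from 98.9 to 439 CPM and from 108 to 353 CPM (1.22, edgeR adjusted p = 3.3e-14). The classes of high share lay above those of low share in both flasks for all 3, as they did by library size. EIF4A2 rose less, from 165 to 528 CPM and from 169.6 to 419 CPM (0.79, edgeR adjusted p = 1.49e-07), while EIF4G2 had 205 and 230.2 CPM in SplitA and 202 and 207 CPM in SplitB (-0.59 by TMM, edgeR adjusted p = 0.000952, and 0.09 by library size). EIF4E and EIF4E2 did not pass (-0.08 and -0.27 by TMM, 0.60 and 0.41 by library size). EIF4H did not pass by TMM (-0.10) and was higher by library size (0.59). EIF4G3 was higher (0.90, edgeR adjusted p = 0.0053), and EIF4B was lower by TMM only (-0.99, edgeR adjusted p = 1.15e-06).

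The make-up of the EIF4A and EIF4G groups, which no scaling touches, differed between the classes. EIF4A2 gave 43.2% (exact binomial interval 41.0 to 45.5%) of the EIF4A1 and EIF4A2 UMIs in the low and 27.6% (23.1 to 32.5%) in the high class of SplitA, and 44.1% (42.2 to 46.0%) and 24.7% (21.2 to 28.5%) in SplitB. EIF4G2 gave 62.2% (59.8 to 64.5%) of the EIF4G UMIs in the low and 30.1% (22.8 to 38.3%) in the high class of SplitA, and 60.2% (58.2 to 62.1%) and 33.0% (26.7 to 39.8%) in SplitB. The intervals of the classes did not overlap in either flask for these shares. For the shares of EIF1B, EIF4E2, EIF5A2, EIF5AL1 and EIF4EBP2 in their groups they overlapped in both flasks.

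Several factors of scanning and start codon choice were lower. EIF1 went from 927 to 518 CPM in SplitA and from 906 to 563 CPM in SplitB (log2 fold change -1.44, edgeR adjusted p = 4.21e-19), EIF1AX by -1.59 (edgeR adjusted p = 3.61e-14), EIF5, which makes eIF2 hydrolyse its GTP, by -1.22 (edgeR adjusted p = 7.05e-10), and EIF1B by -1.07 (edgeR adjusted p = 8.82e-05). By library size EIF1B did not pass. Of the eIF2 subunits, EIF2S1, which stress kinases phosphorylate, rose by 1.21 (edgeR adjusted p = 5.04e-06), EIF2S2 was lower by TMM (-0.54, edgeR adjusted p = 0.00468) and at 0.15 by library size, and EIF2S3 (-0.34) did not pass. EIF5B, which joins the ribosomal subunits, rose by 0.85 (edgeR adjusted p = 1.89e-08). Of the eIF2B exchange factor, EIF2B1, EIF2B2 and EIF2B5 rose by 0.77 to 0.82, without passing by DESeq2 (0.67 to 0.72). EIF2B4 rose by 1.99 (edgeR adjusted p = 3.39e-09), from 11 to 68.0 CPM in SplitA and from 14.9 to 95.8 CPM in SplitB. Its high classes rest on 13 UMIs in SplitA and 32 in SplitB. EIF2B3 did not pass by TMM (edgeR adjusted p = 0.0724) and was higher by library size (1.98). The flasks went opposite ways for EIF2B3, at -0.27 in SplitA and 2.04 in SplitB, with 1 and 9 UMIs in the high classes. The eIF4E inhibitors EIF4EBP1 and EIF4EBP2 fell by 1.66 and 1.69 on the log2 scale (edgeR adjusted p = 6.87e-21 and 2.29e-08). EIF5A was lower by TMM (-0.89, edgeR adjusted p = 1.71e-08) and did not pass by library size (-0.20).

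The eIF3 complex did not move as a unit. EIF3H (-1.58, edgeR adjusted p = 2.1e-17), EIF3F (-1.18, edgeR adjusted p = 1.77e-13), EIF3L (-1.01, edgeR adjusted p = 7.52e-11), EIF3E (-0.83) and EIF3J (-0.78) were lower, the last 2 without passing by library size. EIF3I (0.89, edgeR adjusted p = 1.99e-09), EIF3B (0.70), EIF3D (0.63) and EIF3A (0.57) were higher under both scalings, but the last 3 did not pass by DESeq2 (0.62, 0.56 and 0.48). EIF3G, EIF3K and EIF3M did not pass by TMM and were higher by library size. Among other translation genes listed for comparison, 9 of 33 were higher and 8 lower (15 and 3 by library size), with TUFM, the mitochondrial elongation factor (1.66, edgeR adjusted p = 2.98e-29), higher and PABPC1, the poly(A) binding protein (-1.63, edgeR adjusted p = 8.73e-20), lower.

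**Figure D2:**
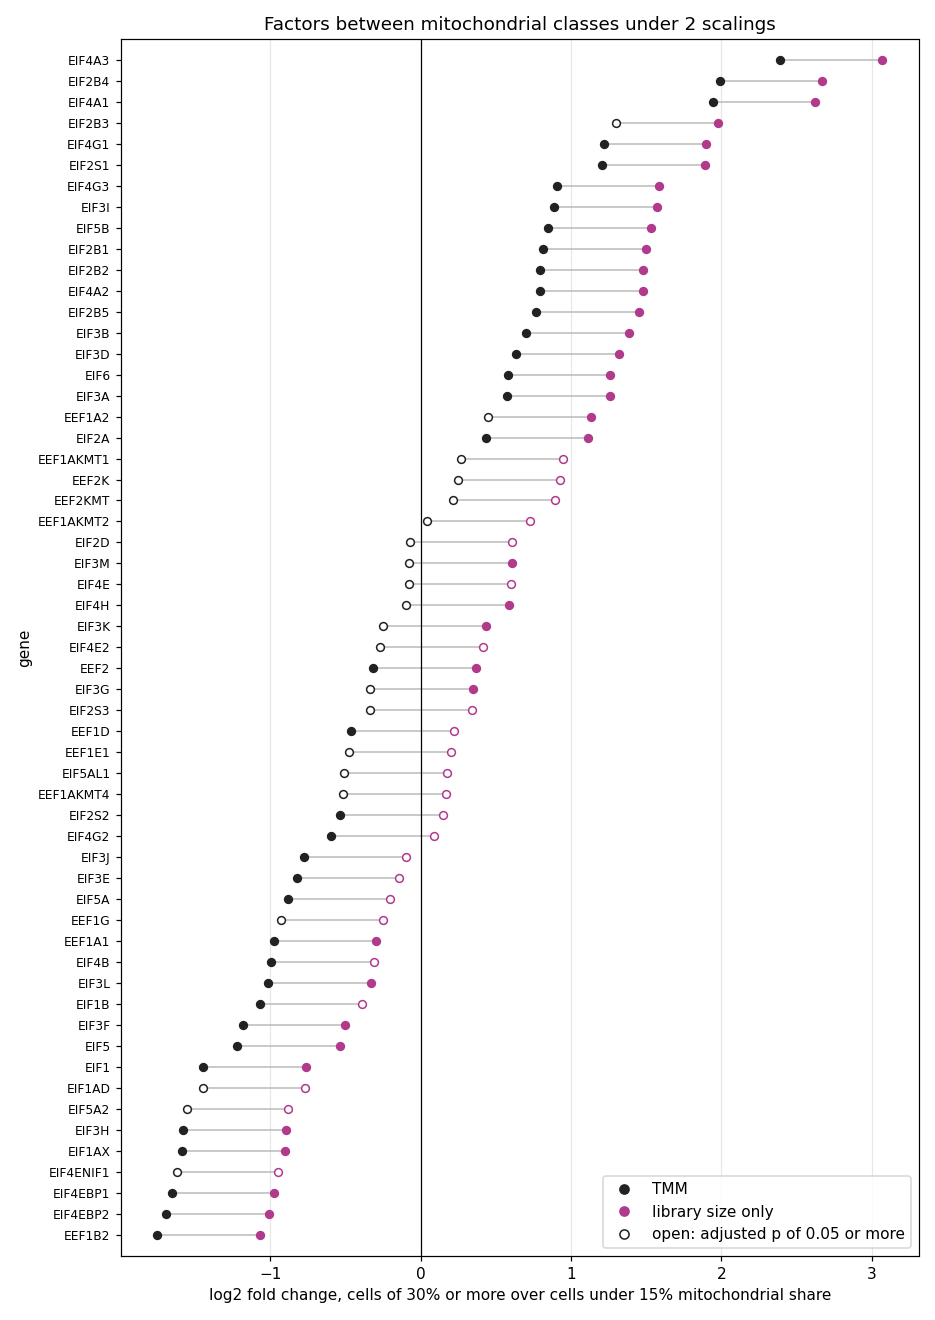
Log2 fold change of the 57 tested factors between cells of at least 30% and cells under 15% mitochondrial share. Black points are TMM-scaled and purple points scaled by library size, joined by a line, and open points did not pass the adjusted p. EIF4A3, EIF2B4 and EIF4A1 are highest under both scalings, EEF1B2 is lowest under both, and EEF2 changes side.

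The cells of high share also had few UMIs, so the contrast was repeated among cells of at most 2000 nuclear UMIs. That left only 11 cells of SplitA and 35 of SplitB in the low class, 38 factors passed the count filter, and 7 were called in place of 36, or 18.4% beside 21.7% of 2389 genes, a share near the background. EEF1A1, EEF1B2, EIF1, EIF3F and EIF5A were lower and EIF3B and EIF4G1 higher there. EIF4A1 kept its direction at 0.71 and EIF4A3 at 0.77 without passing. EIF2A, EIF2B1, EIF2B5, EIF2S1, EIF3D and EIF4A2 turned negative there (-0.08 to -0.63), and EEF2, EIF4B and EIF4G2 positive (0.03 to 0.23). The median log2 fold change over all genes was 0.37 in this fit, against 0.04 in the main fit. EEF2, EIF4B and EIF4G2 thus lay below the median gene although their sign was positive.

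Over 8 finer classes the levels of EIF4A1 and EEF1B2 stepped near 15%. EIF4A1 lay from 197 to 236 CPM over the 4 classes below 15% in SplitA and from 1267 to 1428 CPM in the 4 classes above, where the lowest class held only 18 cells. In SplitB it lay from 208 to 241 CPM below 15% and went from 547 CPM in the 28 cells of 15 to 20% to 1284 CPM in the highest class. EEF1B2 lay from 1260.2 to 1314 CPM below 15% and from 612 to 833 CPM above in SplitA, and from 1235 to 1325 CPM and from 586 to 856 CPM in SplitB. Within the cells under 15%, the rank correlation of the share of EEF1A1 in a cell's nuclear UMIs with its mitochondrial share was -0.04 over 847 cells of SplitA and 0.04 over 1130 cells of SplitB. It was -0.11 over 332 and -0.08 over 475 cells of 15% and more. Both measures come from the same library and the same depth of a cell.

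**Figure D3:**
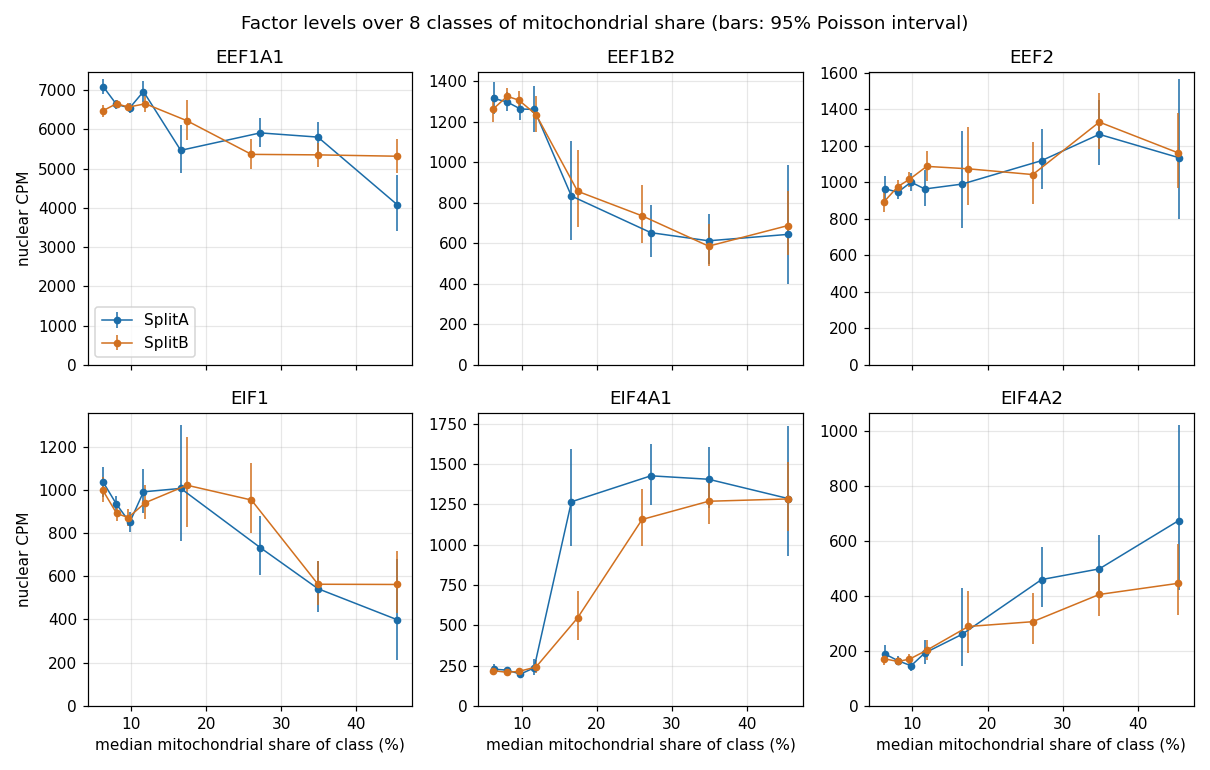
Nuclear CPM of 6 factors over 8 classes of mitochondrial share, plotted at the median share of each class, for SplitA and SplitB with 95% Poisson intervals. EIF4A1 lies from 197 to 241 CPM in the classes below 15% and from 547 to 1428 CPM above, and EEF1B2 from 1235 to 1325 CPM below and from 586 to 856 CPM above.

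Depth was looked at within the cells under 15%. The cells of each flask were split into tertiles, 3 equal groups, of nuclear UMIs. The lowest, with medians of 4051 in SplitA and 4039 in SplitB, was compared with the highest, with 7882.5 and 8329.5. These medians lie above those of the high mitochondrial class, 946 in SplitA and 894 in SplitB. The tertiles thus compare deeper cells than those of that class. The S and G2M genes held 0.504% in the lowest and 0.695% in the highest tertile of SplitA and 0.585% and 0.635% in SplitB, and ribosomal protein genes 38.8% and 41.8%, and 38.1% and 41.8%. Their part in these calls was not tested. By the same test 12 factors were higher in the lowest tertile and 4 lower, 28.1% of the 57 tested. Beside them, 6.8% of 9856 genes, not matched for level, were higher, 4.7% lower and 11.5% either way. By library size 12 were higher and 3 lower, beside 7.33%, 4.35% and 11.7% of genes. EIF1 was higher (802 and 796 CPM in the highest tertile, 1152.5 and 1088 CPM in the lowest, log2 fold change 0.47, edgeR adjusted p = 3.67e-19), as were EIF4A2 (0.60, edgeR adjusted p = 1.5e-09) and EIF4A1 (0.33, edgeR adjusted p = 0.00147), and EIF4EBP1 (-0.46, edgeR adjusted p = 1.82e-10) and EEF1B2 (-0.25, edgeR adjusted p = 2.68e-06) were lower. The other factors called higher were EIF3I, EEF1D, EIF3F, EIF1B, EIF2D, EIF3D, EIF3G, EIF2A and EIF6 (0.24 to 0.90), and EIF2S2 and EIF3J were also lower. EIF1 was thus called lower in cells of high mitochondrial share and higher in the cells of fewest UMIs at low share. EEF1A1 (0.03, edgeR adjusted p = 0.611) and EEF2 (0.02, edgeR adjusted p = 0.879) did not pass. DESeq2 called 4 factors in this contrast, 7.02% beside 2.84% of genes, against 16, and EIF4A1 was not among them.

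The third question was whether the factors moved with the cell cycle, since the flasks grew asynchronously. Cells under 15% with at least 2000 nuclear UMIs were ranked in each flask by their UMIs on S and G2M genes, after each cell was thinned to 2000 UMIs, and the highest tertile was compared with the lowest. None of the factors is among the cycle genes. The median nuclear UMIs were 6380.5 in the highest and 5499 in the lowest tertile in SplitA and 6301 and 5922 in SplitB. By the same test 11 of 56 factors were higher and 21 lower, or 57.1%. Beside them, 15.6% of 9844 genes, not matched for level, were higher, 16.4% lower and 32.0% either way. By library size 17 were higher and 16 lower, a scaling that moved the median gene by 0.17, and 24.0% of genes were higher, 10.1% lower and 34.2% either way.

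EEF1A1 was lower in the highest tertile, at 7654 against 5952 CPM in SplitA and 7513 against 5772 CPM in SplitB (log2 fold change -0.54, edgeR adjusted p = 5.48e-63), and EEF2 at 1122 against 839 CPM and 1142 against 845 CPM (-0.60, edgeR adjusted p = 1.96e-37). EIF1 was lower too (-0.68, edgeR adjusted p = 1.16e-46). The highest tertile lay below the lowest tertile in both flasks for each of these, and by library size too. EEF1A2 was lower by TMM (-0.41, edgeR adjusted p = 0.0377) and did not pass by library size, and EEF1B2 (-0.17, edgeR adjusted p = 0.000396) was at 0.00 by library size. The summed share of the factors was 1.81% of nuclear UMIs in the lowest and 1.54% in the highest tertile in SplitA, and 1.81% and 1.53% in SplitB. For ribosomal protein genes it was 43.1% and 38.5% in SplitA and 43.4% and 38.6% in SplitB.

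Most of eIF3 moved one way here, with 9 of 12 subunits tested lower. EIF3E had 384 against 222 CPM in SplitA and 401 against 213 CPM in SplitB (log2 fold change -1.03, edgeR adjusted p = 7.8e-50), and EIF3D (-0.81), EIF3M (-0.77), EIF3G (-0.67), EIF3H (-0.67), EIF3I (-0.62), EIF3K (-0.58), EIF3F (-0.57) and EIF3L (-0.49) were lower as well, under both scalings. EIF3A (0.10), EIF3B (0.22) and EIF3J (-0.19) did not pass by TMM, although EIF3A and EIF3B were called higher by library size.

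The cap-binding and helicase genes went both ways. Of the 10 tested 5 were higher under both scalings (EIF4A3, EIF4E, EIF4G1, EIF4G2 and EIF4H), 3 were lower (EIF4A1, EIF4A2 and EIF4B), and EIF4E2 (-0.27) and EIF4G3 (0.02) did not pass. EIF4G1 rose from 67.6 to 119.9 CPM in SplitA and from 80.9 to 124 CPM in SplitB (log2 fold change 0.54, edgeR adjusted p = 9.47e-06), EIF4G2 by 0.39 (edgeR adjusted p = 8.66e-06), EIF4E by 0.45 (edgeR adjusted p = 0.0216) and EIF4H, which stimulates eIF4A, by 0.28 (edgeR adjusted p = 0.0106). The inhibitors of eIF4E rose beside them, EIF4EBP1 by 0.36 (edgeR adjusted p = 2.36e-08) and EIF4EBP2 by 0.59 (edgeR adjusted p = 2.57e-05). EIF1AX rose by 0.40 (edgeR adjusted p = 3.94e-06). Of the eIF2 subunits, EIF2S2 (0.27, edgeR adjusted p = 0.00626) and EIF2S1 (0.53, edgeR adjusted p = 0.024) were higher. EIF2S3 was lower by TMM only (-0.40, edgeR adjusted p = 0.0127). EIF4A2 was lower (-0.74, edgeR adjusted p = 1.31e-16), EIF4A1 (-0.32, edgeR adjusted p = 0.000168) and EIF4B (-0.26, edgeR adjusted p = 0.0142) were lower by TMM only and EIF4A3 was higher (0.48, edgeR adjusted p = 0.0474). EEF1AKMT2, a lysine methyltransferase of eEF1A, rose by 1.04 (edgeR adjusted p = 0.00102) from 13.2 to 22.1 CPM and from 6.09 to 20.3 CPM. EIF4A1, EIF4A3, EIF4B, EIF4E, EIF4H, EIF4EBP2 and EEF1AKMT2 did not pass by DESeq2. In all, DESeq2 called 4 factors higher in this contrast, against 11 by edgeR.

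The factors with a tract at the start, as in the windows printed above, were lower as a rule in this contrast. Of the 12 factors with a pyrimidine tract that were tested, 11 were lower and none higher, with a median log2 fold change of -0.57, and EIF2D (-0.21) did not pass. Of the 33 without a tract, 4 were lower (EIF1, EIF1B, EIF3I and EIF4A1) and 9 higher, with a median of 0.03. By library size 8 of the 12 with a tract were lower and none higher, and 3 of the 33 without were lower and 14 higher. DESeq2 called 9 of the 12 lower. The ribosomal protein genes were lower with a tract (46 of 47) and without one (18 of 21). Among all other genes 24.1% of the 585 with a tract were lower and 15.6% higher, and 14.6% of the 7092 without one were lower and 16.1% higher. The factors with a tract were also the more abundant ones, with a median of 169.8 CPM against 49.4 CPM, and the part of level in these calls was not tested. This grouping was made after the fold changes had been seen, so that its counts are a description.

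**Figure D4:**
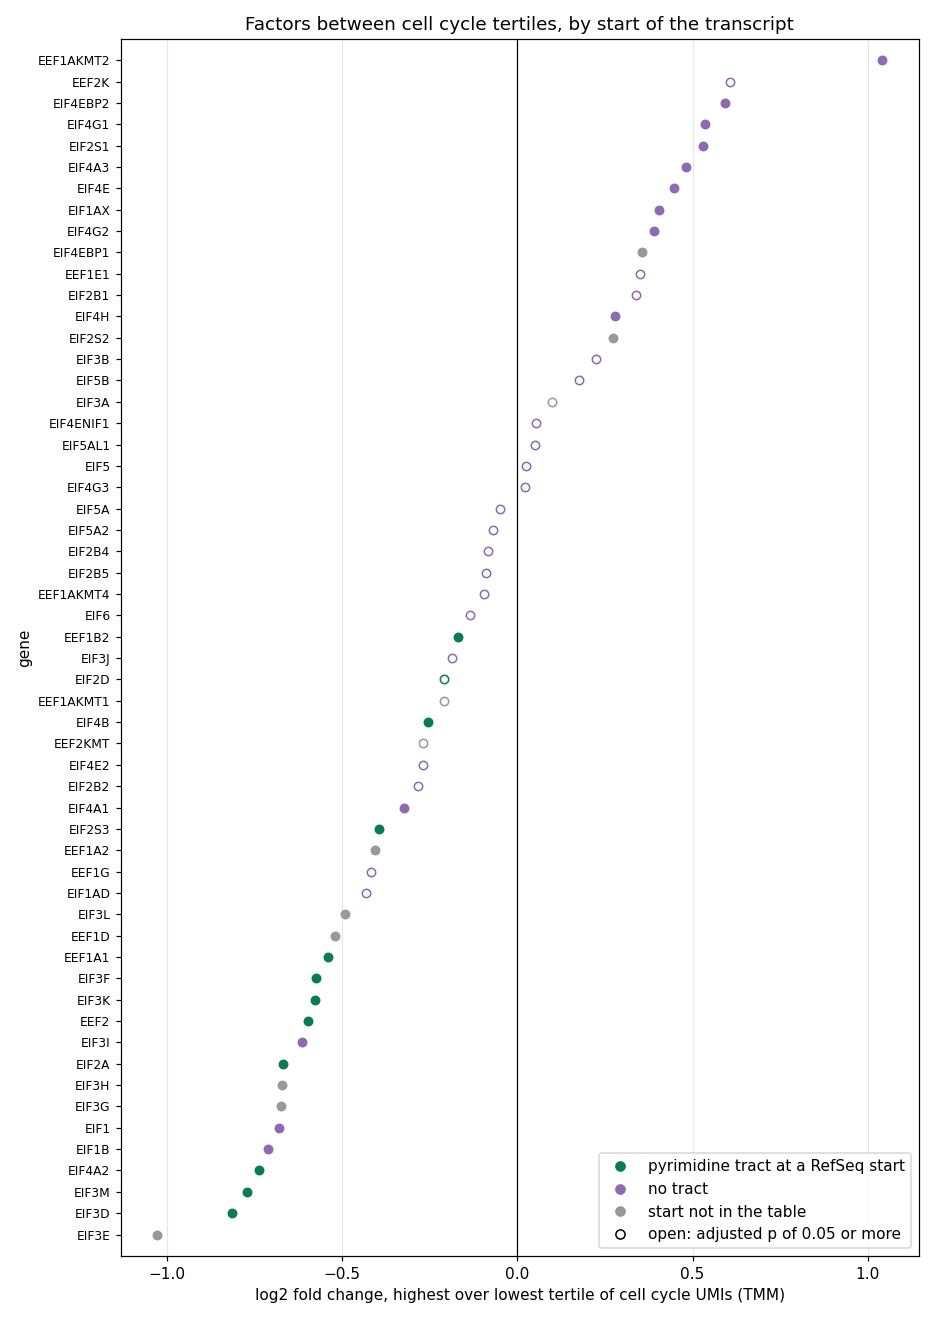
Log2 fold change (TMM) of the 56 tested factors between the highest and the lowest tertile of cell cycle UMIs. Green points are factors with a pyrimidine tract at a RefSeq start, purple points those without and grey points those whose start is not in the table, and open points did not pass the adjusted p. All green points lie below 0 on this scale, while by library size EEF1B2 lies at 0.00.

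In the mitochondrial contrast factors with a tract went both ways. Of the 12 with a tract 3 were higher (EIF2A, EIF3D and EIF4A2) and 5 lower (EEF1A1, EEF1B2, EEF2, EIF3F and EIF4B), and of the 34 without one 13 were higher and 8 lower. Among all other genes 17.2% of those with a tract were higher and 25.3% lower, and 22.8% and 17.7% of those without one. By library size 6 of the 12 were higher and 3 lower, and 15 and 4 of the 34. DESeq2 called 1 of the 12 higher and 5 lower, and 7 and 8 of the 34. Among cells of at most 2000 nuclear UMIs, EIF2A, EIF3D and EIF4A2 turned negative and EEF2 and EIF4B positive. The rank correlation of the fold change with the length of the canonical transcript (GENCODE release 44) was -0.03 over the 57 factors and 0.26 over 10204 genes in the mitochondrial contrast, and 0.31 over 56 factors and 0.27 over 9822 genes in the cycle contrast. Genes are not independent replicates.

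Last, the spread of each factor between cells of the same flask was set against counting noise. The spread index is the variance of a gene's UMIs over cells divided by the variance that binomial counting gives at each cell's depth, so that 1 is counting noise alone. It was computed in the 829 cells of SplitA and 1091 cells of SplitB with at least 1000 genes and a mitochondrial share under 15%, for genes with a mean of at least 0.1 UMIs per cell in both flasks. An index over 1.2 in both flasks was found for 11 of 47 factors, beside 11.5% of 5586 nuclear genes, and for 0 of 26 factors with a mean of 0.1 to 1 UMI, beside 5.41% of 4858 genes. All 11 had a mean of 1 UMI or more, where 11 of 21 factors (52.4%) were past the limit beside 52.1% of 728 genes, a share at the background for that level. For ribosomal protein genes it was 78 of 83.

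EEF1A1 had the highest index, 3.06 in SplitA and 3.39 in SplitB at means of 41.6 and 42.6 UMIs. EIF1 (1.79 and 1.88), EIF4EBP1 (1.498 and 1.65), EIF4A2 (1.42 and 1.44) and EEF2 (1.39 and 1.45) followed. In terms of the extra coefficient of variation beyond counting, EEF1A1 was the lowest of these 5, at 22.3% in SplitA and 23.3% in SplitB, against 34.5% and 36.1% for EIF1, 43.97% and 47.8% for EIF4EBP1, 54.0% and 53.1% for EIF4A2 and 24.3% and 26.1% for EEF2. EEF1B2, at means of 7.996 and 8.42 UMIs, had 18.8% and 20.5%. The lowest indices were those of EIF4G3 (0.917 and 0.998), EIF3B (1.01 and 0.982), EIF2B2 (1.04 and 0.973), EIF4EBP2 (1.05 and 0.979) and EIF6 (0.948 and 1.09), all at means below 1 UMI. When each cell was thinned to 2000 UMIs, 1 of 35 factors, EEF1A1, was past the limit, or 2.86% beside 8.06% of 2098 genes.

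**Figure D5:**
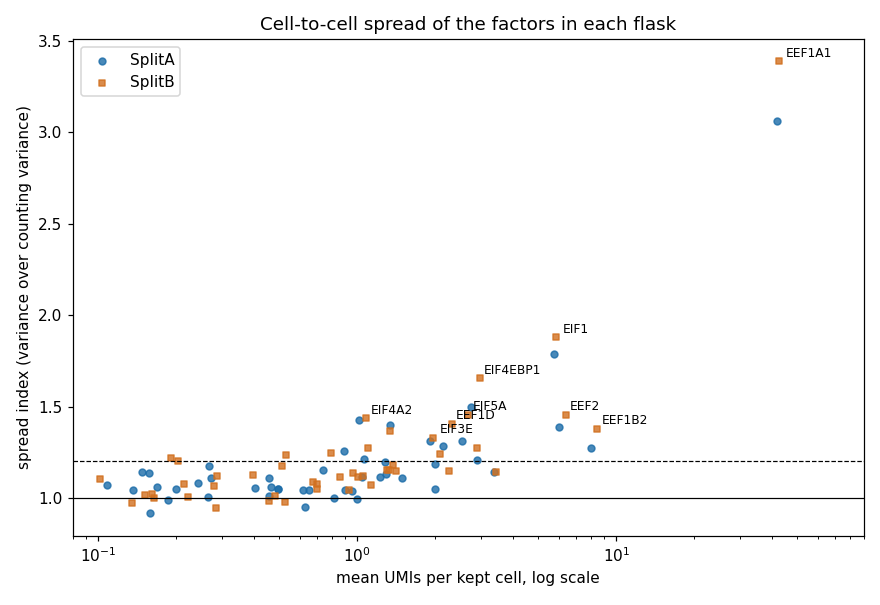
Spread index of the 47 factors against their mean UMIs per kept cell (log axis) in SplitA and SplitB. The solid line marks counting noise and the dashed line the limit of 1.2, and the names mark factors of high index. EEF1A1 lies at 3.06 and 3.39, and factors with means below 1 UMI lie from 0.917 to 1.26.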

How the data were processed

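The authors tagged SH-SY5Y cells of 2 flasks with hashtag antibodies and prepared a 10x Genomics 3′ library. The submitters' processing notes name STAR 2.7 and Cell Ranger 4.0.0 and the build GRCh38. The deposited values are UMI counts without normalization for 33538 genes and 2 hashtags. The gene annotation behind them is not given in the sources used here, and 33113 identifiers matched GENCODE release 44. A singlet had 1 hashtag at least 3 times the other, with the other at or below the limit in the authors' code. SplitA and SplitB are replicates 1 and 2.

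From these counts, UMIs were summed for each flask and class of cells, which gave 6 sums a contrast, and tested with edgeR 4.0.16 (TMM, quasi-likelihood F test, flask as a block) in R 4.3.3 over nuclear genes with at least 60 UMIs, at a Benjamini-Hochberg adjusted p of 0.05. DESeq2 1.42.0 was an alternative. Other values used Python 3.11.15, numpy 2.4.6, scipy 1.17.1 and pandas 2.3.3, and plots matplotlib 3.10.9. The classes of a flask are cells of the same flask and the flasks came from the same split. With the flask as a block, p-values measure only how far class differences varied between 2 flasks, on 2 residual degrees of freedom. The fits were tested on simulated counts with as many genes raised as lowered. These held no shift in composition like that of the ribosomal protein genes, so the choice of scaling was not tested by them.

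Named genes were the members of paralog groups, EEF2 and the eEF1 subunits, the 10 of highest level, the 5 of highest and the 5 of lowest spread index, and for each contrast the 10 called factors of smallest p in each direction. Others are named to complete a complex. The members and lists were chosen with earlier results of these data known. The start windows were added after the fold changes had been seen. Alternatives changed scaling, filters, hashtag limits, depth and flasks.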

Additional observations from a re-analysis of the deposited data

How the results depend on the processing

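The number of factors called in the mitochondrial contrast was 36, or 63.2% beside 41.5% of genes not matched for level. It was 26 to 37 under the other scalings, tests and filters, where the share of genes called went from 21.5% (DESeq2) to 50.4% (library size). The exception was 7 among cells of at most 2000 nuclear UMIs, where 38 were tested (2 higher and 5 lower, beside 214 and 305 of 2389 genes). DESeq2 with its own size factors called 26, 4 and 21 factors in the mitochondrial, depth and cycle contrasts, against 36, 16 and 32. These were 8 higher and 18 lower against 17 and 19, 2 and 2 against 12 and 4, and 4 and 17 against 11 and 21, and over all genes 952 higher and 1243 lower against 2171 and 2071 in the mitochondrial contrast, 191 and 89 against 670 and 463 in the depth contrast, and 506 and 512 against 1535 and 1617 in the cycle contrast. Without the 5% of cells with most UMIs 10 factors were called in the depth contrast, 6 higher and 4 lower, beside 500 higher and 450 lower of 9330 genes. The cause was not tested. Classes of the same flask share that flask by construction, so the flask was a block, and without this replicate block 37, 16 and 32 factors were called in the 3 contrasts, with no call lost.

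By library size alone EEF1D (0.22), EIF4G2 (0.090), EIF2S2 (0.15) and EEF2 (0.36) changed sign in the mitochondrial contrast, and EEF1B2 (0.00026) in the cycle contrast. Among cells of at most 2000 nuclear UMIs the sign changed for EIF2A (-0.19), EIF2B5 (-0.63), EIF4A2 (-0.41), EIF4G2 (0.080), EIF4B (0.027), EIF2B1 (-0.29), EIF2S1 (-0.29), EEF2 (0.23) and EIF3D (-0.085). The median gene stood at 0.37 in that fit.

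With 1 flask there is no test. In the flask that remained, 49 to 50 factors were past 0.25 on the log2 scale in the mitochondrial contrast. The count was 26 to 31 in the depth and 39 to 40 in the cycle contrast. All genes were not counted at this size, so these counts have no background beside them. Every factor called kept its sign in each flask. The spread index passed its limit for 11 factors and for 23 over all singlets (of 46, beside 39.7% of 4801 genes). It did so for 1 with cells thinned to 2000 UMIs, and for 13 to 17 in 1 flask alone, where all genes were not counted. The summed share of 1.68% was 1.67% in kept cells, 1.69% without the 5% of cells with most UMIs, 1.49% of all UMIs, mitochondrial ones included, and 1.67% to 1.68% in 1 flask. The EEF1A2 share of 0.704% was 0.657% in kept cells and 0.683% to 0.725% in 1 flask.

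Few UMIs limit the rarer factors. With 15 and 36 UMIs of EEF1A2 in the high class and 9 factors below the filter of 60 UMIs, smaller changes were not detectable at this depth. Both flasks came from the same split, so spread between independent cultures was not measured.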
